A study of Mus musculus with 4 samples.

Results

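The cells described here are type 1 conventional dendritic cells (cDC1s) from mouse melanomas. They were taken as the cells that the deposited cell table names cDC1, which were 86 of the 33368 cells in the series. All were CD45+ live immune cells, sorted from tumours and profiled by droplet single-cell RNA sequencing that counts molecules at the 3′ end of each transcript. NTT, RTT, RTT_ROSA26 and RTT_PTGS12KO are the names of the 4 tumours, and each group is 1 sample. Every tumour was grown from YUMM1.7, a mouse melanoma line with mutant Braf and without Cdkn2a, that had been made to express the model antigen ovalbumin. All hosts were Rag2-/- mice, which form no T or B cells of their own, and all received OT-1 T cells, CD8+ cells that recognise ovalbumin, on day 7. Tumours were taken on day 10, 72 hours after the transfer. NTT came from a clone never exposed to targeted therapy, and RTT from a clone that had become resistant to the BRAF inhibitor dabrafenib and was kept in it. The RTT_ROSA26 tumour carried RTT cells with a control guide, and the RTT_PTGS12KO tumour carried RTT cells without Ptgs1 and Ptgs2, the genes of both cyclooxygenases. By the study's methods, lines with a guide were made with inducible Cas9 and a guide vector that also carries a drug resistance gene and a fluorescent protein, and were selected with the drug, so RTT_ROSA26 differs from RTT by more than its guide. The knockout was in the cancer cells, so the dendritic cells of all 4 tumours were of the same host genotype, and Ptgs2 read in a cDC1 does not check it. The labels give 1 tumour for each condition, whereas the study's text speaks of pooled tumours. In either case there was 1 library label per condition.

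cDC1s are the dendritic cells that take up material from dead cells and load peptides from it on MHC class I, which is called cross-presentation and lets them prime and restimulate CD8+ T cells. They depend on the transcription factors IRF8 and BATF3, sense dead cells with the receptor CLEC9A and follow the chemokine XCL1, made by NK and CD8+ T cells, through its receptor XCR1. In tumours they are a rare population that can carry antigen to the lymph node and can attract T cells with CXCL9 and CXCL10.

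With 1 sample per group no test of a group difference could be made. Levels are the summed unique molecular identifiers (UMIs) of a gene or list in the cDC1s of a sample per 1e6 summed UMIs (CPM), with exact Poisson 95% intervals. Shares have exact Clopper-Pearson intervals, and log2 ratios have exact conditional binomial intervals. All of these cover counting error only and not the spread between tumours. The cDC1s gave 466126 summed UMIs in NTT and 135215 in RTT, and 151770 in RTT_ROSA26 and 539951 in RTT_PTGS12KO, so 1 UMI was worth between 1.85 and 7.40 CPM. Single cDC1s held between 3963 and 37956 UMIs. The 4 samples were labelled, pooled and loaded 3 times, and no cell named cDC1 shared a barcode with a cell of another load.

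The 6 genes fixed as defining markers set these cells apart from the other dendritic cells, as far as a class that was clustered on these same genes can show it. In the cDC1s of all samples together Xcr1, the XCL1 receptor, was at 263 CPM, against 1.59 CPM in cDC2s and 1.86 CPM in CCR7+ dendritic cells. Clec9a, the receptor for dead cells, was at 155, 16.9 and 9.90 CPM in the same order. Wdfy4, needed for cross-presentation of cell-bound antigen, was at 264, 40.8 and 16.1 CPM. Naaa, a lysosomal amidase, was at 1042, 273 and 63.1 CPM. The 2 transcription factors were less selective. Irf8 was at 1428 CPM in cDC1s and 195 CPM in cDC2s but at 1232 CPM in CCR7+ dendritic cells, and Batf3 was at 214, 19.2 and 168 CPM. On the GRCm38 assembly, in the GENCODE annotation, Xcr1 lies on chromosome 9 from 123852315 to 123862029 on the minus strand, and Clec9a on chromosome 6 from 129408862 to 129424763 on the plus strand. Wdfy4 lies on chromosome 14 from 32959547 to 33185508, Irf8 on chromosome 8 from 120736358 to 120756694, Batf3 on chromosome 1 from 191097847 to 191108945 and Naaa on chromosome 5 from 92257659 to 92278170.

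Cell by cell, 44 of the 86 cells held UMIs of all 6 defining markers, 20 held 5, 14 held 4 and 6 held 3. The last 2 cells held 2 markers and 1 marker. Xcr1 was seen in 73.3% of cDC1s, against 1.01% of cDC2s and 0.152% of C1q macrophages, a class that should lack it and had a similar median depth of 13476 UMIs. Thinned to 5000 UMIs a cell, the expected shares were 52.6%, 0.502% and 0.0481%. Clec9a was seen in 70.9% of cDC1s and 0.235% of C1q macrophages. At least 1 UMI of Xcr1 or Clec9a was found in 77 of 86 cells. The 9 cells without either were 1 NTT, 1 RTT, 1 RTT_ROSA26 and 6 RTT_PTGS12KO cells.

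**Figure D1:**
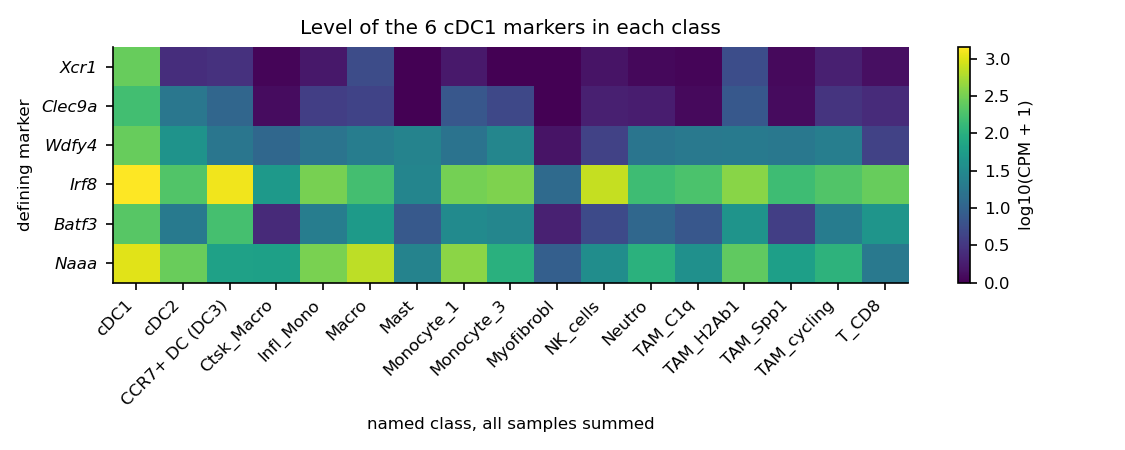
Heat map of the summed level of the 6 defining markers, as log10(CPM + 1), in each of the 17 named classes with all samples together, cDC1s at the left. Xcr1 is at 263 CPM in cDC1s and at 1.59 and 1.86 CPM in cDC2s and CCR7+ dendritic cells, whereas Irf8 is also bright in the latter at 1232 CPM.

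The genes that led the class against all other CD45+ cells were not only the defining ones. Among 1255 genes with at least 100 CPM in cDC1s, the 10 with the highest log2 ratio (on CPM + 10, against all other cells summed) were Plet1, Xcr1, Sept3, Itgae, Cd24a, Cst3, Clec9a, Btla, Gcsam and Wdfy4. Plet1, a surface protein first described in placenta, was at 589 CPM in cDC1s and 6.27 CPM in the rest, a log2 ratio of 5.20. Cst3, cystatin C, a protease inhibitor made in quantity by dendritic cells, was at 30388 CPM in cDC1s and 2250 CPM in the rest. Itgae, the integrin CD103 of non-lymphoid cDC1s, was at 215 CPM in NTT and 311 in RTT, and 191 in RTT_ROSA26 and 135 in RTT_PTGS12KO. Cd24a was at 556, 222, 606 and 522 CPM in that order. These values describe the class and support no test, since its cells were grouped by them.

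The B cell, mast cell, T cell, NK cell and stroma lists were at or near 0 in these cells. The plasmacytoid, neutrophil and cDC2 lists were low, whereas the monocyte and macrophage lists were not. No UMI of the B cell or mast cell lists was found in any cDC1. The T cell list had 11 UMIs, the NK cell list 30 UMIs and the stroma and melanoma list 5 UMIs over all 86 cells. The plasmacytoid dendritic cell list, led by Tcf4 and with its defining gene Siglech at 1 UMI, summed to 50.3 CPM and was found in 39 of the 86 cells. The neutrophil list summed to 116 CPM and was found in 68 of 86, and the cDC2 list to 168 CPM, found in 33 of 86. The list of CCR7+ dendritic cells summed to 439 CPM and was found in 82 of the 86 cells. The monocyte list summed to 2070 CPM and was found in 86 of 86. The macrophage list includes Adgre1, C1qa, C1qb, C1qc, Apoe, Mrc1, Ms4a7 and Csf1r. It summed to 375 CPM in NTT and 5539 CPM in RTT, and 1021 CPM in RTT_ROSA26 and 476 CPM in RTT_PTGS12KO. In RTT 724 of the 749 UMIs of that list came from 1 cell, which also held 4 UMIs of Xcr1 and 2 of Clec9a.

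After these values were seen, cells named cDC1 that held at least 50 UMIs of the macrophage list were counted. They were 2 cells of RTT_ROSA26 and 1 cell of each other tumour, and 4 of the 5 held both Xcr1 and Clec9a. The fifth, of RTT_PTGS12KO, held 116 macrophage-list UMIs, 15 UMIs of the defining markers and neither Xcr1 nor Clec9a. They are called macrophage-rich cells from here on. Without them the macrophage list was at 266, 252, 256 and 267 CPM in the 4 samples. The monocyte list summed to 2308, 1109, 2372 and 2021 CPM and, without the same 5 cells, to 2187, 1279, 715 and 2016 CPM. Plac8, which cDC1s themselves can express, made up 63.2% of it. The 5 cells held 26323, 35925, 29163, 28932 and 12784 UMIs in all, of which the first 4 lie above the medians of their samples, 12834.5 in NTT, 16627 in RTT and 13669.5 in RTT_ROSA26. The part that RNA of other cells has in them was not tested. The lists that turn on them are given with and without them, since in RTT and RTT_ROSA26 they hold a large part of the summed UMIs.

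The levels of the defining markers were not the same in the 4 tumours. Xcr1 was at 290 CPM (95% interval 243 to 343) in NTT and 104 (56.6 to 174) in RTT, and 204 (139 to 290) in RTT_ROSA26 and 296 (252 to 346) in RTT_PTGS12KO. This summed level was lowest in RTT, and the NTT and RTT_PTGS12KO intervals lay above that of RTT. Cell by cell the order was another, with Xcr1 found in 28 of 32, 6 of 7, 9 of 10 and 20 of 37 cells. Thinned as above, the expected shares were 64.0%, 43.2%, 59.0% and 43.2%. RTT_PTGS12KO thus had the highest summed level but not a higher thinned share of cells with Xcr1 than RTT. Clec9a was at 200, 51.8, 92.2 and 161 CPM. Irf8 was at 1718, 636, 1206 and 1437 CPM. Naaa was at 1206, 606, 1041 and 1009 CPM and Wdfy4 at 333, 163, 316 and 215 CPM. Batf3 was the most even, at 240, 177, 231 and 196 CPM. In all cells, all 6 were higher in NTT than in RTT, with a log2 ratio of 1.20 (1.00 to 1.40) for their sum. Batf3 was the one whose own interval, -0.21 to 1.14, included 0. Between RTT_PTGS12KO and RTT_ROSA26 the sum differed by 0.10 (-0.05 to 0.25) on the log2 scale, with 3 genes higher and 3 lower. Leaving out the macrophage-rich cells, the sums were 4029, 2065, 3566 and 3367 CPM, with RTT_ROSA26 above RTT_PTGS12KO, and Batf3 was at 230 CPM in NTT and 232 CPM in RTT. The cells were named with these genes, so lower levels in RTT are a property of the 7 cells that received the name there.

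cDC1s were more frequent in NTT and RTT_PTGS12KO than in the other tumours. NTT had 32 cDC1s among 8266 CD45+ cells, a share of 0.387% (0.265 to 0.546). RTT had 7 among 7970, or 0.0878% (0.0353 to 0.181). RTT_ROSA26 had 10 among 6836, or 0.146% (0.0702 to 0.269). RTT_PTGS12KO had 37 among 10296, or 0.359% (0.253 to 0.495). The NTT and RTT_PTGS12KO shares were close to each other, and both lay above those of RTT and RTT_ROSA26, whose intervals overlapped each other. The intervals of both NTT and RTT_PTGS12KO overlapped that of RTT_ROSA26 slightly.

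The log2 ratio of shares was 2.14 (0.93 to 3.56) for NTT over RTT and 1.30 (0.26 to 2.47) for RTT_PTGS12KO over RTT_ROSA26. For RTT_ROSA26 over RTT, the comparison of the control line with the line it was made from, it was 0.74 (-0.81 to 2.37), an interval that includes 0. These comparisons share RTT and RTT_ROSA26 and are not independent. In the 3 loads, which repeat the same tumours, the share was 0.364, 0.449 and 0.351% in NTT and 0.115, 0.0371 and 0.112% in RTT. It was 0.0875, 0.134 and 0.217% in RTT_ROSA26 and 0.270, 0.354 and 0.448% in RTT_PTGS12KO. In each load both NTT and RTT_PTGS12KO were above RTT and RTT_ROSA26. A share of sorted CD45+ cells does not give cells per tumour, and fewer cDC1s cannot be told apart from more of the other immune cells.

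Set against dendritic cells only, the picture was partly different. cDC1s made up 7.94% (5.49 to 11.0) of the 403 dendritic cells of NTT, 3.63% (1.47 to 7.33) of 193 in RTT, 3.21% (1.55 to 5.82) of 312 in RTT_ROSA26 and 8.01% (5.70 to 10.9) of 462 in RTT_PTGS12KO. As a log2 ratio this was 1.13 (-0.08 to 2.56) for NTT over RTT, so that its interval now just included 0. It was 1.32 (0.28 to 2.49) for RTT_PTGS12KO over RTT_ROSA26, and -0.18 (-1.72 to 1.45) for RTT_ROSA26 over RTT.

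**Figure D2:**
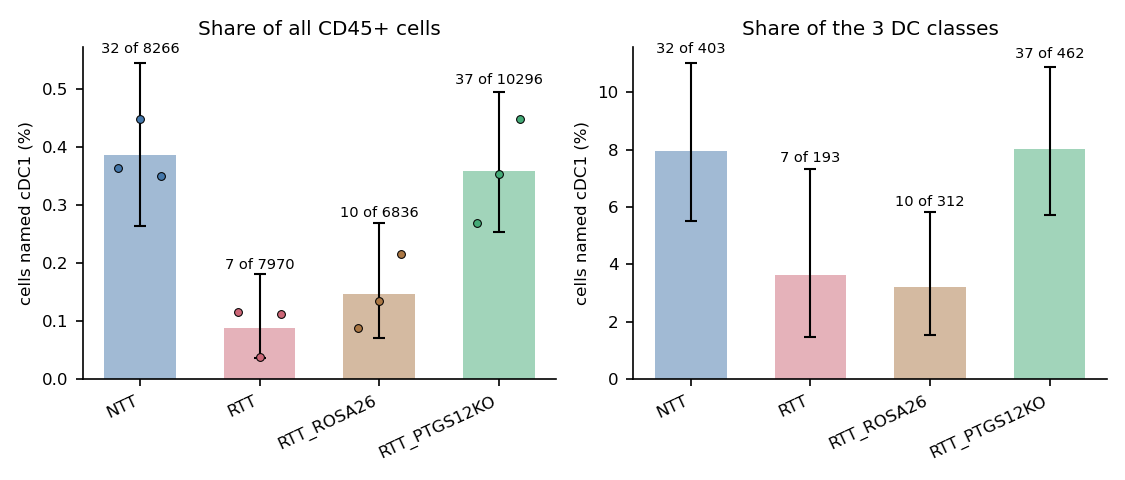
Bars give cDC1s as a percentage of all CD45+ cells (left) and of the 3 dendritic cell classes (right) in each tumour, with exact Clopper-Pearson intervals, the cell numbers above and, at the left, the 3 loads as points. NTT and RTT_PTGS12KO sit at 0.387 and 0.359% of CD45+ cells, above RTT and RTT_ROSA26 at 0.0878 and 0.146%.

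Against CCR7+ dendritic cells, cDC1s were low in the marker genes of that class, which was clustered on them, and in most costimulators. Genes with at least 50 CPM in either of the classes compared were counted as past 2-fold on CPM + 10. Against cDC2s 3.75% of 2746 genes were higher and 10.5% lower, and against CCR7+ dendritic cells 13.3% of 2916 genes were higher and 16.9% lower. The CCR7+ list has 14 genes, and the 13 that reached 50 CPM in either class were at least 2-fold lower in cDC1s than in CCR7+ dendritic cells, with a median log2 ratio of -4.53 beside 0.14 for all genes. Ccr7, the receptor for migration to the lymph node, was at 13.9 CPM in cDC1s, 36.2 in cDC2s and 2234 in CCR7+ dendritic cells. Il12b, a subunit of interleukin 12, was at 304 CPM in CCR7+ dendritic cells, 1.55 in cDC1s and listed at 0 in cDC2s. Maturing cDC1s are known to switch on Ccr7, so cells of cDC1 origin in that state may carry the CCR7+ name in the deposited table.

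Costimulators and checkpoint ligands split by class. Of 12 genes of that list, 9 were lower in cDC1s than in CCR7+ dendritic cells and 3 were higher, beside 16.9% and 13.3% of all genes. Against cDC2s 2 of 11 were lower and 1 was higher, beside the 10.5% and 3.75% of all genes. Cd40 was at 24.0 CPM in cDC1s, 52.9 in cDC2s and 184 in CCR7+ dendritic cells. Cd86, a ligand of CD28, was at 169, 274 and 369 CPM, and Cd274, which encodes PD-L1, at 99.0, 165 and 541 CPM. Btla, Havcr2 and Lgals9, which encode the inhibitory receptors BTLA and TIM-3 and the TIM-3 ligand galectin-9, were the 3 higher ones.

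**Figure D3:**
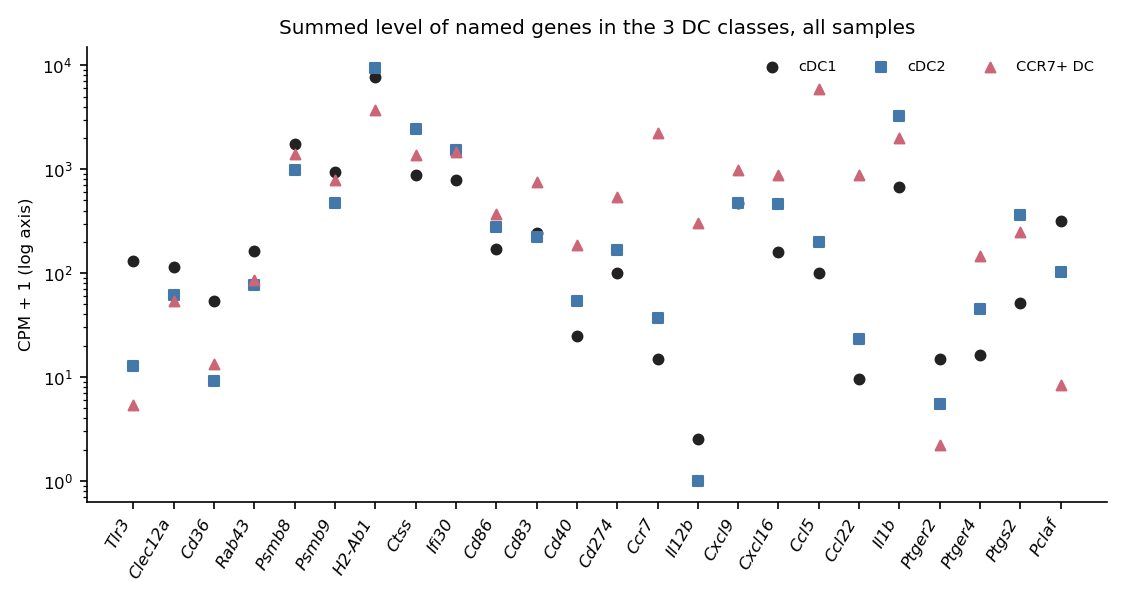
Summed levels (CPM + 1, log axis) of 24 genes in cDC1s, cDC2s and CCR7+ dendritic cells, each point being all samples together. Tlr3 stands at 130 CPM in cDC1s against 11.7 and 4.33 CPM, and Ccr7 at 13.9 CPM against 36.2 and 2234 CPM.

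Uptake and sensing genes were split. Of the uptake list 2 of 7 genes were 2-fold higher in cDC1s than in cDC2s (Clec9a and Cd36) and 3 of 7 lower (Mrc1, Lrp1 and Clec4n), beside 3.75% and 10.5% of all genes. Against CCR7+ dendritic cells 3 of 8 were higher and 4 of 8 lower, among the latter Axl and Ly75, beside 13.3% and 16.9%. Clec9a, a defining marker of the class, is among the higher genes in both counts. Tlr3, the receptor for double-stranded RNA, was at 130 CPM in cDC1s, 11.7 in cDC2s and 4.33 in CCR7+ dendritic cells, and was the 1 gene of the sensor list more than 2-fold higher than in both. Cd36, a scavenger receptor, was at 52.6, 8.21 and 12.4 CPM. Rab43, a small GTPase linked to cross-presentation, was at 163, 75.0 and 84.8 CPM. Of 12 cross-presentation genes with at least 50 CPM in either class, 3 were 2-fold higher and 3 were 2-fold lower than in cDC2s, beside 3.75% and 10.5% of all genes, and the median log2 ratio of -0.28 was below the 0.06 of all genes. The 3 higher ones were Wdfy4, Clec9a and Rab43. The first 2 of these are defining markers, so that count is partly set by the naming of the class. Cybb, a subunit of the phagosomal oxidase, Rac2 and Syk were the 3 lower ones. With all samples together, MHC class I presentation did not separate cDC1s from cDC2s, with none of 20 genes past 2-fold either way. The tumours weigh differently in the 2 classes. Within NTT its sum was 14301 CPM in cDC1s and 17899 in cDC2s, and within RTT 7721 and 9157 CPM. It was 9462 and 6696 CPM in RTT_ROSA26, and 13331 and 14201 CPM in RTT_PTGS12KO. Against CCR7+ dendritic cells, all samples together, 6 of the 20 class I genes were lower, beside 16.9% of all genes, among them H2-K1, H2-D1 and B2m. Calr and Pdia3, chaperones of the loading complex, were the 2 higher ones, beside 13.3%.

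Between the 4 tumours, most genes of cDC1s were at like levels. Of 2367 genes with at least 50 CPM in the pooled cDC1s, 9.13% were at least 2-fold higher and 3.08% at least 2-fold lower in NTT than in RTT, with a median log2 ratio of 0.12. In RTT_PTGS12KO against RTT_ROSA26 4.73% were higher and 2.2% lower, with a median of 0.06. In RTT_ROSA26 against RTT, the control line against the line it was made from, 9.21% were higher and 5.28% lower, with a median of 0.08. That pair, of 10 and 7 cells, thus had as large a share of genes past 2-fold as NTT over RTT. Counts of list genes below are of genes with at least 50 CPM in the pooled cDC1s. NTT and RTT_PTGS12KO give most of the pooled UMIs, so genes high there pass this bound more easily. Such counts are descriptions and support no test.

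MHC class I presentation was higher in NTT and RTT_PTGS12KO cDC1s than in those of RTT and RTT_ROSA26. Its summed level was 14301 CPM in NTT and 7721 in RTT, and 9462 in RTT_ROSA26 and 13331 in RTT_PTGS12KO. As a log2 ratio this was 0.89 (0.80 to 0.99) for NTT over RTT, with 19 of 20 genes higher and 9 of 20 at least 2-fold higher, beside the 9.13% of all genes. For RTT_PTGS12KO over RTT_ROSA26 it was 0.50 (0.41 to 0.58), with 19 of 20 genes higher and 3 of 20 at least 2-fold higher, beside 4.73% of all genes. The median gene differed by 0.95 and 0.59 in these comparisons. RTT_ROSA26 over RTT gave 0.29 (0.18 to 0.41), with 16 of 20 genes higher and 1 of 20 at least 2-fold higher, beside 9.21% of all genes. Without the macrophage-rich cells the sums were 14190, 8007, 7814 and 13343 CPM, and the log2 ratios 0.83 (0.72 to 0.93), 0.77 (0.66 to 0.88) and -0.04 (-0.18 to 0.11).

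Single cells showed the same order. The list summed to between 10096 and 18760 CPM in the NTT cells, with a median of 13972 CPM. It ran from 5678 to 12197 CPM in RTT, with a median of 6931 CPM, and from 6494 to 14196 CPM in RTT_ROSA26, with a median of 8117 CPM. In RTT_PTGS12KO it ran from 6759 to 19622 CPM, with a median of 12795 CPM. The highest RTT_ROSA26 values were those of macrophage-rich cells, and without them the highest was 9590 CPM, below every NTT cell.

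By role, the heavy chain H2-K1 was at 1493 CPM in NTT and 651 in RTT, and 863 in RTT_ROSA26 and 1272 in RTT_PTGS12KO. B2m, the light chain of every class I molecule, was at 2405, 1213, 1338 and 2172 CPM. Both were highest in NTT and lowest in RTT, and their log2 ratios for NTT over RTT were 1.20 (0.88 to 1.53) and 0.99 (0.75 to 1.23). RTT_ROSA26 was the lowest without the macrophage-rich cells, with H2-K1 at 566 CPM against 645 CPM in RTT, and B2m at 865 against 1128 CPM. Tap1, a subunit of the peptide transporter, was at 390, 104, 178 and 311 CPM. Psmb8, a catalytic subunit of the immunoproteasome, was at 1817, 961, 1258 and 2019 CPM. The non-classical gene H2-Q7 was at 296, 59.2, 72.5 and 191 CPM, and H2-Q6 had no UMI in RTT and was at least 4.35-fold higher in NTT, taking 3 UMIs over the sample as the floor. H2-Q6 and H2-Q7 are near-identical, so the reads of one may have been given to the other. The chaperones followed another order, with Calr at 626, 555, 343 and 593 CPM and Pdia3 at 470, 562, 290 and 470 CPM.

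Genes of the interferon responses were low in most cDC1s of RTT and RTT_ROSA26. Monocyte markers moved with them, as the list values above without macrophage-rich cells show, and Ly6c2, found in 25 of 32, 1 of 7, 2 of 10 and 24 of 37 cells, was then at 450, 10.1, 0 and 328 CPM. Their part in the result was not tested. The type I interferon list summed to 1176 CPM in NTT and 177 in RTT, and 448 in RTT_ROSA26 and 995 in RTT_PTGS12KO. As a log2 ratio this was 2.73 (2.14 to 3.38) for NTT over RTT, with 5 of 5 genes with at least 50 CPM past 2-fold, beside 9.13% of all genes, and a median of 2.76, or 2.61 with genes without a UMI at their bound. It was 1.15 (0.78 to 1.54) for RTT_PTGS12KO over RTT_ROSA26, with 2 of 5 genes past 2-fold, beside 4.73% of all genes, and a median of 0.86. For RTT_ROSA26 over RTT it was 1.34 (0.65 to 2.07), with 4 of 5 genes past 2-fold, beside 9.21% of all genes. The sums use all 20 genes of the list, whereas these 5 are those that reached 50 CPM in the pooled cDC1s. None of the 5 did so in RTT, so the counts and medians lean to genes high in other samples. Few UMIs stood behind the low values, 24 in RTT and 68 in RTT_ROSA26. In RTT 18 of the 24 came from 1 cell, which held neither Xcr1 nor Clec9a, and in RTT_ROSA26 57 of the 68 came from the 2 macrophage-rich cells. Without the macrophage-rich cells the sums were 1146, 242, 117 and 986 CPM, and the log2 ratios 2.25 (1.66 to 2.90), 3.07 (2.22 to 4.08) and -1.04 (-2.22 to 0.04). Every one of the 32 NTT cells held at least 1 UMI of the list, whereas 2 of 37 RTT_PTGS12KO cells held none, and 4 of 7 in RTT and 4 of 10 in RTT_ROSA26 held none.

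Isg15, a ubiquitin-like protein induced by type I interferon, was at 202 CPM in NTT and 7.40 in RTT, and 125 in RTT_ROSA26 and 235 in RTT_PTGS12KO. All 19 of its RTT_ROSA26 UMIs were in the 2 macrophage-rich cells. Irf7, a transcription factor that amplifies the response, was at 232, 29.6, 79.1 and 109 CPM, and the nucleic acid sensor Zbp1 at 208, 22.2, 85.7 and 185 CPM. Without the macrophage-rich cells Irf7 was at 227, 40.3, 42.7 and 112 CPM and Zbp1 at 207, 30.2, 10.7 and 188 CPM. Oasl1 had no UMI in RTT or in RTT_ROSA26, and it was at least 3.38-fold higher in NTT than in RTT and at least 3.56-fold higher in RTT_PTGS12KO than in RTT_ROSA26.

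The interferon-gamma list, of genes such as the guanylate-binding proteins and Cxcl9, summed to 2441 CPM in NTT and 924 in RTT, and 1548 in RTT_ROSA26 and 2769 in RTT_PTGS12KO. As a log2 ratio this was 1.40 (1.13 to 1.68) for NTT over RTT, with 6 of 11 genes at least 2-fold higher, beside 9.13% of all genes, and a median of 1.04, beside 0.12 for all genes. It was 0.84 (0.64 to 1.04) for RTT_PTGS12KO over RTT_ROSA26, with 4 of 11 genes, beside 4.73%, and a median of 0.97, beside 0.06. For RTT_ROSA26 over RTT it was 0.74 (0.42 to 1.07), with 6 of 11 genes at least 2-fold higher and 2 of 11 lower, beside 9.21% and 5.28%. Without the macrophage-rich cells the sums were 2372, 1138, 438 and 2768 CPM, and the log2 ratios 1.06 (0.78 to 1.35), 2.66 (2.21 to 3.15) and -1.38 (-1.93 to -0.85). In RTT 82 of the 125 UMIs of the list came from the 1 cell that held neither Xcr1 nor Clec9a. In cells with at least 1 UMI of either gene the log2 ratio was 2.73 (2.30 to 3.21) for NTT over RTT and 2.14 (1.66 to 2.64) for RTT_ROSA26 over RTT. The order of RTT and RTT_ROSA26 thus turned on a few cells.

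The median cell showed the split more plainly than the sum. It held 1675 CPM of the interferon-gamma list in NTT and 2177 CPM in RTT_PTGS12KO, but 360 CPM in RTT and 459 CPM in RTT_ROSA26. The lowest of the 37 RTT_PTGS12KO cells had 518 CPM, and of the NTT cells 1 had no UMI of the list and another had 501 CPM. The 8 RTT_ROSA26 cells that were not macrophage-rich ran from 260 to 584 CPM, so the groups overlapped at the low end.

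**Figure D4:**
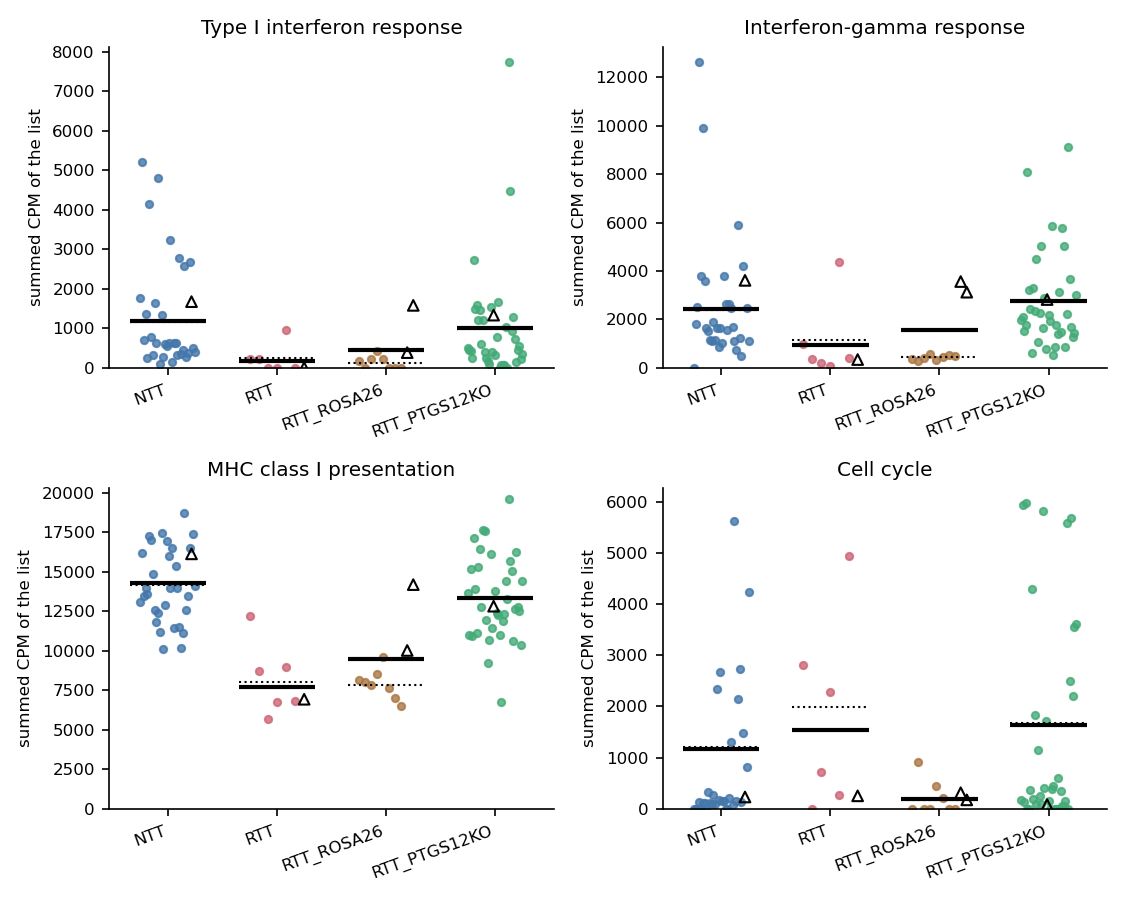
Summed level of the type I interferon, interferon-gamma, MHC class I and cell cycle lists in each cDC1 (CPM) of the 4 tumours, with the level of all cells summed (solid line) and without the macrophage-rich cells (dotted line), which are drawn as triangles. In RTT_ROSA26 the interferon-gamma sum stands at 1548 CPM with the 2 triangles and at 438 CPM without them.

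Among its genes, Iigp1, an immunity-related GTPase, was at 345 CPM in NTT and 22.2 in RTT, and 178 in RTT_ROSA26 and 357 in RTT_PTGS12KO. It was found in 27 of 32 NTT cells and 29 of 37 RTT_PTGS12KO cells, but in 1 of 7 RTT cells and 2 of 10 RTT_ROSA26 cells, and both of the latter were macrophage-rich. Free RNA can give such UMIs, and its part here was not tested. Iigp1 was also read in 13.3% of C1q macrophages and in 82.1% of monocytes, with all samples together. Irf1, a factor that acts on class I and proteasome genes, was at 157, 74.0, 52.7 and 181 CPM, and without the macrophage-rich cells at 150, 80.6, 10.7 and 169 CPM. Serpina3g had no UMI in RTT and was at least 6.96-fold higher in NTT. Cd274 was at 96.5, 22.2, 98.8 and 120 CPM, and without the macrophage-rich cells at 86.4, 10.1, 21.4 and 112 CPM. Gbp2 was at 178, 185, 178 and 202 CPM, but without those cells at 146, 252, 0 and 203 CPM, since they held all of its RTT_ROSA26 UMIs.

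The stretches upstream of a few of these genes show which of them carry the letters of interferon-type elements close to a transcript start. The windows are the 250 bases before a transcript start of the RefSeq promoter table for GRCm38.p6. For Psmb8 the window lies inside the span that GENCODE gives the gene, which begins at 34197721, since the RefSeq transcript starts later. They were searched on both strands for GAAA followed after 2 bases of any kind by a further GAAA, the core of an interferon-stimulated response element, and for TTCNNNGAA, the core of a gamma-activated site, with matches in capitals. Isg15 and B2m are shown for the first motif and Irf8 and Psmb8 for the second. The windows are chr4:156200819-156201068 (minus strand) for Isg15, chr2:122147437-122147686 (plus) for B2m, chr8:120736108-120736357 (plus) for Irf8 and chr17:34197945-34198194 (plus) for Psmb8.
Isg15: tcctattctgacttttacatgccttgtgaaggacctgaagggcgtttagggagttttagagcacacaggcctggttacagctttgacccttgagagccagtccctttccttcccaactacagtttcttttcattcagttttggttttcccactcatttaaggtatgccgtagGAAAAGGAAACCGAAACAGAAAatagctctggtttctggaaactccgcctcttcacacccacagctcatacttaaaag
B2m: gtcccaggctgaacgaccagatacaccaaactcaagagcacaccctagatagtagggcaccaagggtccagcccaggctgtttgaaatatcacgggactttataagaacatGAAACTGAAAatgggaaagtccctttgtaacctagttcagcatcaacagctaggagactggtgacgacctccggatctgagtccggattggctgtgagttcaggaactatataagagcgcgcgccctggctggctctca
Irf8: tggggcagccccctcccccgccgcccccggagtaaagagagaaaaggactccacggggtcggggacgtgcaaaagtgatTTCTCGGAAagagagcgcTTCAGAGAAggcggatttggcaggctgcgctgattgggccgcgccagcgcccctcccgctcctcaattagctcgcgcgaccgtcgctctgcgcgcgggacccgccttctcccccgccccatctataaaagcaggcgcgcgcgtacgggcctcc
Psmb8: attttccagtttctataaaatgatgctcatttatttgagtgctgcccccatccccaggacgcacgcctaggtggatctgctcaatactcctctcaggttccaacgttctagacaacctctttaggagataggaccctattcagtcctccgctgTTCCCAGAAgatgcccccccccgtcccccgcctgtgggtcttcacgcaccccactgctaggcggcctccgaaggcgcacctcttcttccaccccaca
Isg15 has 3 overlapping matches to the first motif, and B2m has 1. Irf8 has 2 matches to the second motif and Psmb8 has 1. Of 32851 promoters of this length 2.98% held the first motif and 7.02% the second. Among genes of the type I list with a promoter in the reference table, 6 of 16 held the first and 3 of 16 the second, and among those of the interferon-gamma list 9 of 14 and 8 of 14. For MHC class I presentation the counts were 3 of 20 and 2 of 20, and for the defining cDC1 markers 0 of 6 and 2 of 6. A match is a description of letters and not a site that was shown to be bound in these cells.

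UMIs of Cxcl9 were found in most cells of NTT and RTT_PTGS12KO and in few of the other tumours. Cxcl9, a ligand of CXCR3, was at 438 CPM in NTT and 29.6 in RTT, and 231 in RTT_ROSA26 and 676 in RTT_PTGS12KO. It was found in 18 of 32, 2 of 7, 2 of 10 and 23 of 37 cells, and the largest cell held 71 of the 204 UMIs of NTT and 97 of the 365 of RTT_PTGS12KO. All of the RTT_ROSA26 UMIs were in the macrophage-rich cells. UMIs of Cxcl9 were also read in 10.2% of C1q macrophages, of a median 13476 UMIs a cell against 13194 in cDC1s, and in 67.2% of monocytes, of a median 8094.5. Cxcl10 had no UMI in RTT and was at least 3.67-fold higher in NTT. Ccl5 rested on single cells, with 56 of the 102 UMIs of NTT in 1 cell, and Ccl4 in RTT_ROSA26 likewise, with 78 of 97 UMIs in 1 cell. Cxcl16, the ligand of CXCR6, had the reverse order, at 81.5 CPM in NTT and 392 in RTT, and 237 in RTT_ROSA26 and 144 in RTT_PTGS12KO, with a log2 ratio of -2.27 (-2.91 to -1.64) for NTT over RTT. In the chemokine list 4 of 7 genes were at least 2-fold higher and 2 of 7 at least 2-fold lower in NTT than in RTT, beside 9.13% and 3.08% of all genes. In RTT_PTGS12KO over RTT_ROSA26 5 of 7 were at least 2-fold higher, beside 4.73% of all genes. In RTT_ROSA26 over RTT 3 of 7 were higher and 2 of 7 lower, beside 9.21% and 5.28%. These counts turn in part on the macrophage-rich cells. Ccl2, a ligand of CCR2 and one of the 2 lower genes, was at 51.5 CPM in NTT and 303 CPM in RTT, but at 52.3 and 20.1 CPM without them, and Cxcl9 and Cxcl10 were then at 0 in RTT_ROSA26. The list summed to 1356, 843, 1160 and 1474 CPM, and without the macrophage-rich cells to 1298, 463, 1142 and 1461 CPM.

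**Figure D5:**
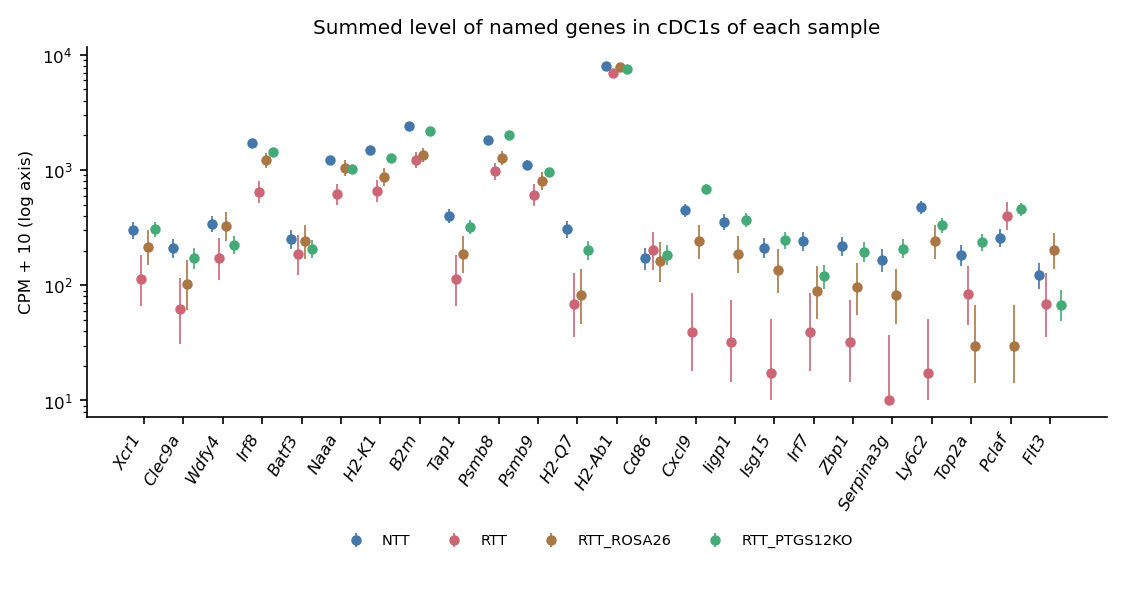
Summed level in cDC1s (CPM + 10, log axis) of 24 genes in the 4 tumours, with exact Poisson intervals. B2m stands at 2405, 1213, 1338 and 2172 CPM in NTT, RTT, RTT_ROSA26 and RTT_PTGS12KO, and Cxcl9 at 438, 29.6, 231 and 676 CPM.

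Cell cycle genes were nearly missing from the cDC1s of RTT_ROSA26 but not from those of RTT. The list summed to 1161 CPM in NTT and 1531 in RTT, and 198 in RTT_ROSA26 and 1646 in RTT_PTGS12KO. As a log2 ratio this was 3.06 (2.53 to 3.64) for RTT_PTGS12KO over RTT_ROSA26, with 7 of 7 genes at least 2-fold higher, beside 4.73% of all genes, and a median of 2.99, or 2.34 with genes without a UMI at their bound. For RTT_ROSA26 over RTT it was -2.95 (-3.56 to -2.40), with 7 of 7 genes at least 2-fold lower, beside 5.28% of all genes, and for NTT over RTT -0.40 (-0.63 to -0.16), which became 0.49 with RTT and RTT_ROSA26 summed as the comparison. The 7 genes counted are those that reached 50 CPM in the pooled cDC1s, to which RTT_ROSA26 gives a small part of the UMIs. The counts and medians thus lean to genes low in RTT_ROSA26, whereas the sums use the whole list. The sums without the macrophage-rich cells were 1216, 1994, 171 and 1684 CPM. Pclaf, a partner of the replication clamp PCNA, was at 247, 392, 19.8 and 444 CPM. Top2a, which untangles replicated DNA, was at 172, 74.0, 19.8 and 226 CPM. Mki67, the marker of cycling cells, was at 70.8 and 81.4 CPM in NTT and RTT, had no UMI in RTT_ROSA26 and was at 100 CPM in RTT_PTGS12KO, at least 5.06-fold higher.

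UMIs of the list were found in 66 of the 86 cells, and 24 of 86 reached 1000 CPM. The list reached 1000 CPM in 8 of 32 NTT cells (25%, 11.5 to 43.4) and 13 of 37 RTT_PTGS12KO cells (35.1%, 20.2 to 52.5). It did so in 3 of 7 RTT cells and 0 of 10 RTT_ROSA26 cells. For RTT_ROSA26 the interval reached up to 30.8%, so a share like that of NTT could not be told from 0 with 10 cells. Between 500 and 2000 CPM, near this bound, lay 9 of the 86 cells.

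MHC class II presentation summed to 25680, 24036, 28589 and 26519 CPM, with log2 ratios of 0.10 (0.04 to 0.15) for NTT over RTT and -0.11 (-0.16 to -0.06) for RTT_PTGS12KO over RTT_ROSA26. Without the macrophage-rich cells these were -0.016 and -0.43, with RTT_ROSA26 highest at 36082 CPM. H2-Ab1, a class II chain, was at 7961, 6878, 7874 and 7525 CPM. Cross-presentation genes summed to 2521, 2470, 2629 and 2450 CPM, and costimulators and checkpoints to 1002, 784, 1081 and 1043 CPM. Cd86 was at 161, 192, 152 and 174 CPM. Flt3, the receptor for the growth factor on which dendritic cells depend, was at 112, 59.2, 191 and 57.4 CPM, lower in RTT_PTGS12KO than in RTT_ROSA26 with a log2 ratio of -1.73 (-2.51 to -0.95). Cytokine genes summed to 601, 636, 1463 and 980 CPM, and most of this was Il1b, at 416, 547, 1272 and 761 CPM. The cytokine sum had a log2 ratio of 1.20 (0.84 to 1.58) for RTT_ROSA26 over RTT, and 0.26 (-0.20 to 0.72) without the macrophage-rich cells. Without the macrophage-rich cells the cytokine sum of RTT_PTGS12KO over RTT_ROSA26 had a log2 ratio of 0.031 in place of -0.58.

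The receptors for prostaglandin E2, the product of the enzymes knocked out in the cancer cells, were at the edge of detection in cDC1s. Ptger2, which encodes EP2, had 5 UMIs in NTT and 3 in RTT, and 2 in RTT_ROSA26 and 8 in RTT_PTGS12KO. Ptger4, which encodes EP4, had 3, 0, 2 and 15 UMIs in the same order. No order of the tumours is read from counts this low. Ptgs2 itself was at 49.3, 22.2, 125 and 38.9 CPM, and all 19 of its RTT_ROSA26 UMIs were in 1 cell.

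The genes with the largest log2 ratios (CPM + 10) show how far single cells set the extremes. Of 701 genes that reached 200 CPM in NTT or RTT, the 5 highest in NTT over RTT were Ly6c2 at 4.77, Isg15 at 3.60, Cxcl9 at 3.50, Iigp1 at 3.46 and Ccl4 at 3.14. Ly6c2, known from inflammatory monocytes, had 216 UMIs in 25 of 32 NTT cells and 1 UMI in RTT. It was also read in 13.1% of C1q macrophages and 90.0% of monocytes. The 5 lowest were Apoe at -4.15, C1qa at -4.09, Pf4 at -3.91, C1qb at -3.65 and S100a4 at -3.34. The first 4 of these are macrophage genes, and 392 of the 404 Apoe UMIs of RTT were in its 1 macrophage-rich cell, without which the log2 ratio was 0.31.

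In RTT_PTGS12KO over RTT_ROSA26, among 707 genes, the 5 highest were Hist1h2ap at 4.17, Pclaf at 3.93, Hist1h2ae at 3.80, Top2a at 2.99 and Cdkn1a at 2.30. The first 4 belong to the replicating cell, and Cdkn1a encodes the cell cycle inhibitor p21. The histone genes are members of a family of near-identical copies, so their own values are uncertain. Among the 5 lowest were Thbs1 at -3.65, Cd14 at -3.40, Cxcl2 at -2.72 and Ccnl1 at -1.62. Without the macrophage-rich cells Thbs1 was at 0.90 and Cd14 at 0.06.

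cDC2s of the same tumours, 1088 cells, gave a comparison with more UMIs. Their log2 ratios for the type I interferon list were 2.29 for NTT over RTT and 2.24 for RTT_PTGS12KO over RTT_ROSA26, beside 2.73 and 1.15 in all cDC1s and 2.25 and 3.07 in cDC1s that were not macrophage-rich. For the interferon-gamma list they were 1.53 and 2.98, beside 1.40 and 0.84, or 1.06 and 2.66. For MHC class I they were 0.97 and 1.08, beside 0.89 and 0.50, or 0.83 and 0.77. For the cell cycle list they were -2.30 and -0.03, beside -0.40 and 3.06 in all cDC1s. For RTT_ROSA26 over RTT cDC2s gave -1.13 for type I, -1.46 for interferon-gamma and -0.45 for MHC class I, of opposite sign to the 1.34, 0.74 and 0.29 of all cDC1s. In cDC1s that were not macrophage-rich they were -1.04, -1.38 and -0.04, where the type I and MHC class I intervals span both signs. In cDC1s with Xcr1 or Clec9a the type I and interferon-gamma ratios were positive, opposite to those of cDC2s. The CCR7+ dendritic cells, 196 in all but 12 in RTT and 14 in RTT_ROSA26, gave 0.50 and 0.15 for the type I list. They gave 0.88 and 1.67 for the interferon-gamma list and 0.69 and 0.34 for MHC class I. Their macrophage list stood at 22448 CPM in RTT and 6487 in RTT_ROSA26, against 1976 in NTT and 2946 in RTT_PTGS12KO. Its part in these ratios was not tested. Whether the classes differ in these ratios was not tested, since each rests on 1 sample per group.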

How the data were processed

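The authors ran Cell Ranger (mm10) and Seurat 4.3.0 and deposited raw UMI counts of 32285 genes in 33368 cells, with 17 named classes. In the deposited files the fewest genes in a cell was 1001 and the highest mitochondrial share 14.9869%. Doublets were treated as the authors left them, and no caller was run. The per-cell totals of the cell table were a median of 68.2% of the count matrix sums and were not used. Classes were taken from the deposited names, which the authors gave to clusters made after Harmony integration with other experiments, with CCR7+ dendritic cells being the class DC3. Gene coordinates come from GENCODE and promoters from RefSeq, both for GRCm38, the assembly that mm10 denotes. The members and the gene lists were chosen with earlier results of these data known. Of 353 list genes 350 were measured.

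Counts were summed over the cDC1s of each sample and divided by their total. Comparisons were NTT against RTT, RTT_PTGS12KO against RTT_ROSA26 and RTT_ROSA26 against RTT. Genes with at least 50 CPM in pooled cDC1s were counted as past 2-fold on log2(CPM + 10). A gene without a UMI was set to 3 UMIs for a bound. Genes named were the defining markers, list genes with at least 100 CPM or a textbook role, the 10 leading genes against other cells, and the 5 highest and lowest of the first 2 comparisons among genes that reached 200 CPM in either sample. Some list genes below 100 CPM were named after their values were seen. Cells with at least 50 macrophage-list UMIs, and cells with at least 2 Xcr1 UMIs, were chosen after seeing the data. Shares of cells with a UMI after thinning were expected values at 5000 UMIs. Python 3.11.15, numpy 2.4.6, scipy 1.17.1, pandas 2.3.3, matplotlib 3.10.9 and R 4.3.3 with edgeR 4.0.16 (TMM factors only, as an alternative scaling) were used. Interval code was tested on simulated data. Some genes are not reported here.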

Additional observations from a re-analysis of the deposited data

How the results depend on the processing

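No paired analysis was possible because the groups hold 1 sample each. Depth limits the low groups, with 7 RTT and 10 RTT_ROSA26 cells, and no difference was tested. All 20 alternative share ratios stayed within their counting intervals. Of the list ratios, 263 did so, 89 moved and 14 changed sign. Of the ratios of named genes, 48 stayed, 23 moved and 9 changed sign. Changes of sign were counted only where the main counting interval held values of a single sign. Any others are among the ratios that stayed or moved. Values below are log2 ratios, in the order NTT over RTT (A), RTT_PTGS12KO over RTT_ROSA26 (B) and RTT_ROSA26 over RTT (C), and the cause of the moves was not tested.

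Without macrophage-rich cells (chosen after seeing the data), MHC class I was 0.77 (B) and -0.035 (C), class II -0.016, -0.43 and 0.48, type I 3.07 (B) and -1.04 (C), interferon-gamma 1.06, 2.66 and -1.38, cell cycle -0.71 (A), cytokines 0.031 (B), prostanoid genes 1.02 (B) and survival genes -0.0062 (C). Among genes, Apoe was 0.31, Pf4 0.62, C1qb 0.58, Thbs1 0.90 and Cd14 0.064. Without the cell of most UMIs in each sample, class I was 0.67 (B) and 0.058 (C), class II 0.0043 (A) and -0.22 (B), type I 2.54 (B) and -0.43 (C), interferon-gamma 1.23 (B) and 0.045 (C), cell cycle -1.14 (A), prostanoid genes 0.34 (B), Apoe 0.36, Pf4 0.57 and C1qb 1.18. Without cells richer in monocyte and macrophage than in cDC1 markers (25 of 86), class I was 1.09 (A) and 0.71 (B), class II -0.41 (B) and 0.51 (C), type I 2.51 (B), interferon-gamma 2.98 (A) and 2.60 (B), cell cycle -1.16 (A) and -4.10 (C), cytokines -0.52 (C) and prostanoid genes 0.80 (B). No type I value could be given there for A and C, since the 3 RTT cells left had no UMI. In cells with Xcr1 or Clec9a, type I was 4.50 (A) and 3.17 (C) and interferon-gamma 2.73 (A) and 2.14 (C).

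With each cell weighing the same, class I was 0.61 (B) and 0.13 (C), class II -0.24 (B) and 0.32 (C), type I 1.74 (B) and 0.58 (C), interferon-gamma 1.45 (B) and 0.067 (C) and cell cycle -0.997 (A). Against RTT and RTT_ROSA26 summed, class I was 0.73 (A) and 0.63 (B), class II -0.042 (A) and 0.0041 (B), type I 1.87 and 1.63, interferon-gamma 0.96 and 1.14 and cell cycle 0.49 and 0.995. TMM factors (0.959 to 1.04) put class II at 0.19 (A) and -0.029 (B). Counts of genes past 2-fold depended on the minimum level. Without one, 970 were higher and 656 lower in A, 758 and 470 in B, and 1203 and 962 in C. At 200 CPM they were 48 and 11, 15 and 3, and 36 and 14.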

Other observations

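Xcr1 was also read outside the class. At least 2 UMIs of it were found in 46 cells named cDC1 and in 44 cells of other names, of which 18 were cycling macrophages, 9 were H2-Ab1 macrophages and 7 were monocytes. By tumour these 44 cells were 34 in RTT_PTGS12KO, 8 in NTT and 1 each in RTT and RTT_ROSA26. They held 20.0 CPM of Clec9a, 1.18 CPM of Itgae and no UMI of Gcsam, whereas the cDC1s with at least 2 Xcr1 UMIs held 199, 231 and 111 CPM. Their macrophage list stood at 12134 CPM, against 1321 CPM in those cDC1s. Cells of any name with at least 2 Xcr1 UMIs made up 0.327% of NTT and 0.495% of RTT_PTGS12KO cells, and 0.0627% of RTT and 0.102% of RTT_ROSA26 cells.

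Xcl1, the gene of the XCR1 ligand, was at 420 and 92.6 CPM in the NK cells of NTT and RTT, and at 507 and 648 CPM in those of RTT_ROSA26 and RTT_PTGS12KO. The NK cells numbered 709, 13, 26 and 306 in that order, and the RTT value rests on 21 UMIs. In CD8+ T cells it was at 1162 CPM in NTT, from 93 cells, and 1474 CPM in RTT_PTGS12KO, from 45 cells. RTT had 1 CD8+ T cell, with 22 UMIs of Xcl1, and RTT_ROSA26 had 2, with none.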
